A study of Mus musculus with 4 samples.

Results

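The genes described here are 40 genes of the cell division cycle, taken from a given list of symbols that runs from the G1 cyclins to the motors of cytokinesis, out of 22066 genes with a probe on the arrays. Each member was found by its gene name on all 4 arrays. Expression had been measured in interscapular brown adipose tissue (iBAT) and epididymal white adipose tissue (eWAT) of wild-type (WT) mice and of mice lacking ASK1, the stress-responsive kinase encoded by Map3k5. The mice were male and 10 weeks old, and the strain named in the methods is C57BL/6J. ASK1 was absent from the whole body rather than from adipocytes alone, and the methods state that the WT and ASK1-deficient mice came from separate breeding. RNA from 3 mice was pooled for each of the 4 conditions, labelled with Cy3 and hybridized to 1 one-colour Agilent array. No condition has a replicate, so no spread over mice can be given, and differences within a tissue or within a genotype carry no test.

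Cells divide by passing through G1, DNA replication, G2 and mitosis. D-type cyclins with Cdk4, and E-type cyclins with Cdk2, release the E2F factors that switch on the replication genes, and a later wave of transcription driven by FOXM1, B-MYB and the MuvB complex supplies the mitotic kinases, motors and checkpoint proteins. Mature adipocytes hardly divide. In adipose tissue, dividing cells are found mainly among adipocyte progenitors, macrophages and endothelial cells, and brown adipose tissue expands by progenitor division in the cold. In whole tissue, a lower share of dividing cells and less RNA of a gene in each cell cannot be told apart.

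The promoters of 31 of the 40 members were matched by symbol in a table of RefSeq mouse promoters on GRCm38.p6, each window covering 250 bases before and 50 after a transcription start. The stretches of 150 bases just before the start are shown for 4 genes that carry the motif classes of this gene group, written 5′ to 3′ along the gene, which lies on the minus strand in all 4 cases. They are Mki67 at chr7:135716380-135716529, Cdk1 at chr10:69352913-69353062, Top2a at chr11:99024190-99024339 and Mcm6 at chr1:128359706-128359855. Capitals mark 3 motifs searched on both strands, namely the CHR element TTTGAA of late cell cycle genes, the CCAAT box, and the E2F sites GCGGGAA or GCGCCAA.
Mki67: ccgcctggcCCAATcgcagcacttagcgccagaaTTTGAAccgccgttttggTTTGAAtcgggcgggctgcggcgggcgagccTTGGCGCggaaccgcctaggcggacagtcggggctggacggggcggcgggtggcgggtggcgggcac
Cdk1: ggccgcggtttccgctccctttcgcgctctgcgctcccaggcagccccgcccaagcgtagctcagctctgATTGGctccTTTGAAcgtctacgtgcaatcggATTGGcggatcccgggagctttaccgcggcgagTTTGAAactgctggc
Top2a: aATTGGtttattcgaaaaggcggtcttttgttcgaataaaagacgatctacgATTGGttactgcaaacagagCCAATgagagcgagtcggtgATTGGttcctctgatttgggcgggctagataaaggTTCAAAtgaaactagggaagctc
Mcm6: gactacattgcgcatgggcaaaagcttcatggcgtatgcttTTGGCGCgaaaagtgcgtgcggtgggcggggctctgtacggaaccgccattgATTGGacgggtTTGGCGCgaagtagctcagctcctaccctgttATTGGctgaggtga

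The CHR letters were found in 14 of the 31 members, or 45.5% of the members' promoters against 17.9% of all 32851 promoters in the table. CCAAT was found in 24 members, or 75.8% of their promoters against 37.4% of all, and an E2F site in 8 members, or 24.2% against 6.81%. CHR and CCAAT stood together in 45.5% of the members' promoters and in 6.95% of all promoters. CHR matches lay in 4 of 5 mitotic entry genes, 4 of 8 spindle and chromosome genes and 1 of 8 replication genes, whereas E2F sites lay in 4 of 8 replication genes. Of the 13 E2F sites, 1 overlapped a CCAAT. A match is a description of the letters and not of bound protein.

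**Figure D1:**
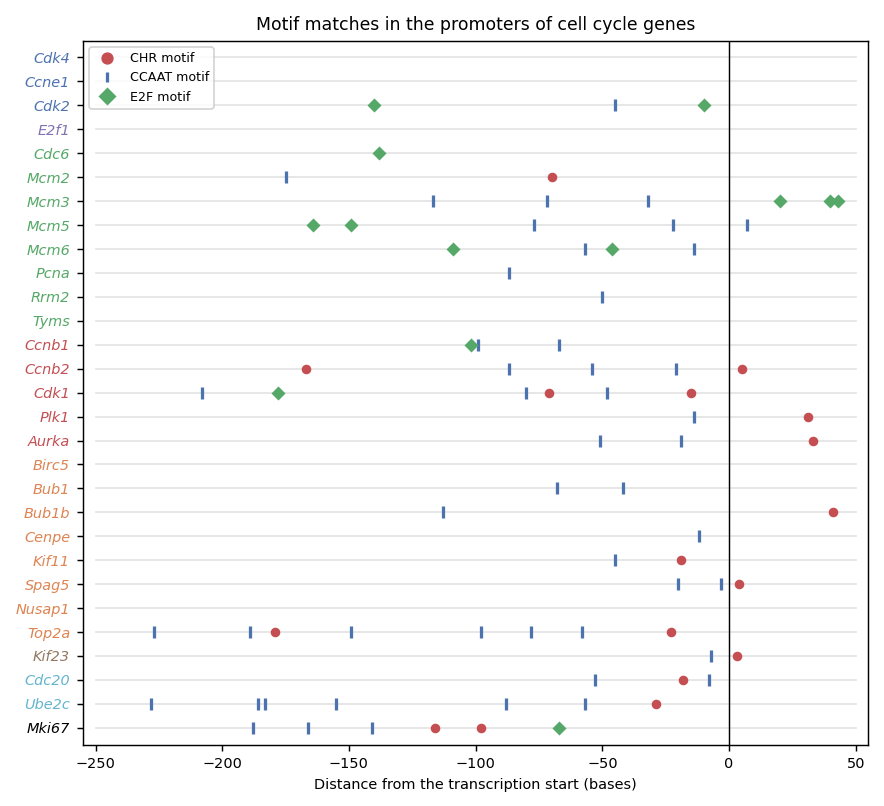
Positions of CHR (red circles), CCAAT (blue bars) and E2F (green diamonds) matches relative to the transcription start, in bases, for the members with 1 start in the promoter table. Gene names are coloured by role and run from G1 genes at the top to Mki67 at the bottom. CHR matches sit mostly in the mitotic genes of the lower rows and E2F matches mostly in the replication genes. Ccnd3 and Prc1, with 2 starts each, are not drawn.

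The targeted gene, Map3k5, has 2 probes, and which part of the gene each reads relative to the deletion was not determined. At one probe the WT and ASK1-deficient signals were 448 and 117 in iBAT and 701 and 194 in eWAT. At the other they were 1081 and 1082, and 1264 and 836. Between 28985 and 33389 of 55681 probes were well above background, and the 75th percentile of the signal, to which each array was scaled, was 356 and 371 on the iBAT arrays and 673 and 634 on the eWAT arrays. As a sum of signals scaled in this way, brown adipocyte markers stood at 2455 (WT) and 1999 (ASK1-deficient) in iBAT and at 28.1 and 5.04 in eWAT. Skeletal muscle markers were at 523 on each iBAT array and at 8.47 and 4.30 in eWAT. Mesothelial markers were at 0.304 and 0.284 in iBAT and at 33.6 and 28.4 in eWAT, and mature adipocyte markers were between 1779 and 2200 on all 4 arrays. All 15 marker lists were summed, and those not given beside a result below were endothelial (38.2 and 37.4 on the WT and ASK1-deficient arrays of iBAT, 29.1 and 27.1 on those of eWAT), erythroid (580, 474, 454 and 410), B cell (1.79, 1.29, 2.42 and 2.49), keratinocyte (0.906, 0.709, 0.716 and 0.700), male germ cell (1.25, 0.734, 0.578 and 0.554) and epididymal (0.114, 0.142, 0.158 and 0.123). On each eWAT array 7 of 10 germ cell genes and 6 of 7 epididymal genes were not well above background, while the germ cell genes Prm2 (67.1 in WT and 87.4 without ASK1), Tnp1 (39.2 and 54.4) and Sycp3 (277 and 209 at its brighter probe) were.

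Members were brighter in eWAT than in iBAT and many were dim. Of the 40 members, 31 were well above background on the WT iBAT array and 33 on its ASK1-deficient counterpart, and 37 and 35 were on the WT and ASK1-deficient arrays of eWAT. Ccne2, Cdc25c and Aurkb, which encode cyclin E2, the phosphatase that activates Cdk1, and the kinase of the chromosomal passenger complex, were not well above background on any array, with signals between 3.46 and 14.2. Over probes printed at least 5 times, the SD of the log2 ratio between 2 arrays was 0.0869 in iBAT and 0.0599 in eWAT, and 0.190 and 0.181 for probes with a signal under 200, where most members lie in iBAT. This spread covers the spots of 1 hybridization and not the mice.

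**Figure D2:**
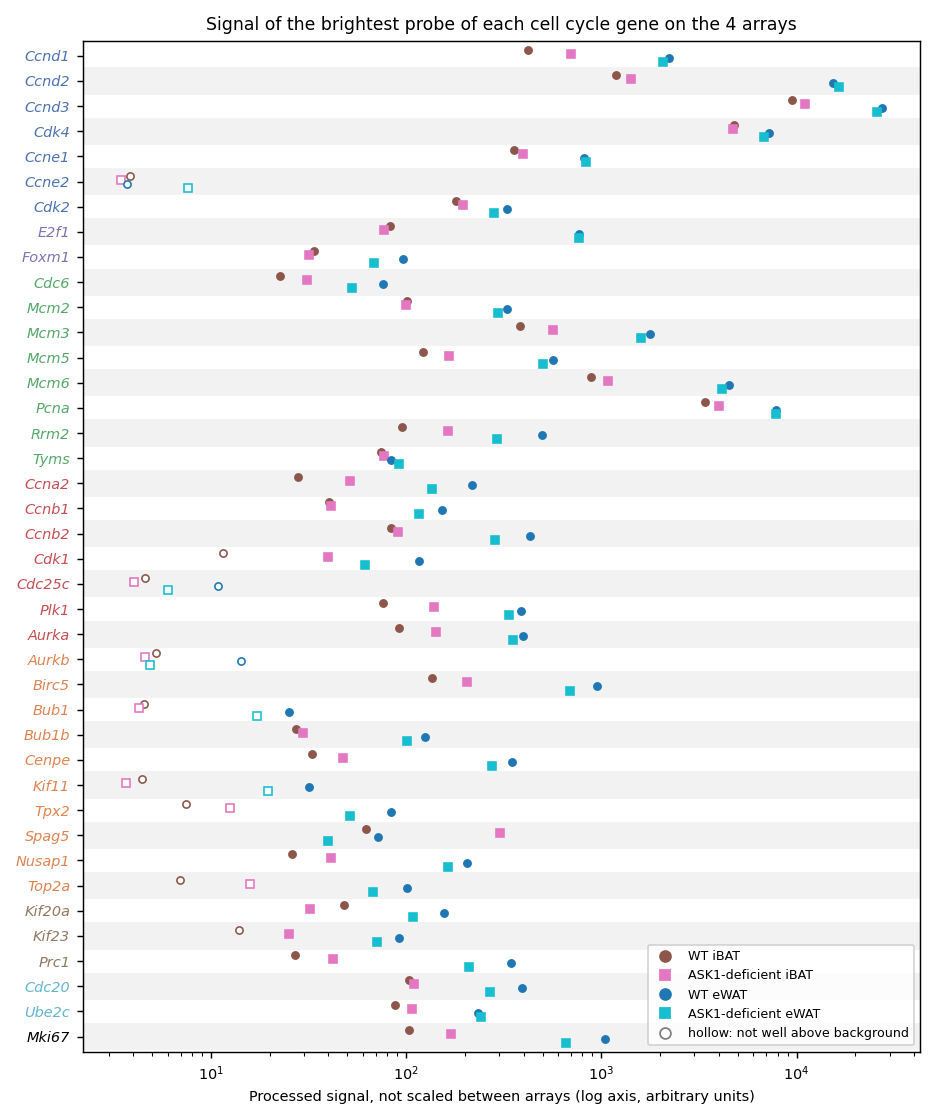
Processed signal (log axis, arbitrary units, not scaled between arrays) of the brightest probe of each of the 40 members, in WT (circles) and ASK1-deficient (squares) iBAT (brown and pink) and eWAT (blue and cyan), with hollow symbols for signals not well above background. Signals may be compared along a row and not between rows, since probes differ in brightness. The eWAT arrays, whose 75th percentile was also higher, lie to the right of the iBAT arrays for most members.

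In iBAT, the members were modestly higher without ASK1. Of the 31 members well above background on both iBAT arrays, 24 lay above 0 on the log2 scale (ASK1-deficient minus WT) and 7 below, with a median of 0.20, while the median of all 14377 genes measured was -0.07 and 40.5% of them lay above 0. One member, Spag5, was at least 2-fold higher, against a background of 0.835% of all genes, and 0 members were at least 2-fold lower, against 1.02%. The members were thus shifted upward as a group while nearly all of them stayed within 2-fold. By role, the median log2 ratio was 0.58 in the mitotic entry genes, 0.52 in the spindle and chromosome genes and 0.31 in the replication genes. It was 0.11 in the G1 cyclins and kinases, 0.07 in the 2 ubiquitin ligase genes, -0.03 in the 2 cytokinesis genes measured and -0.15 in the 2 transcription factors. With normexp background correction, described below, it was 0.25 in the mitotic entry genes (Aurka) and 0.20 in the spindle and chromosome genes (Cenpe). In the replication genes it then lay between 0.21 (Mcm6) and 0.24 (Pcna). Sizes and order of the roles thus depend on the background correction.

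Mki67, the proliferation antigen Ki-67 that coats mitotic chromosomes, had iBAT signals of 103 (WT) and 170 (ASK1-deficient) at its probe on chr7:142881591-142881650 (mm9), and of 60.3 and 87.4 at its probe on chr7:142884764-142884823. Both probes were brighter without ASK1, and the log2 ratio was 0.57 (1.48-fold), with 700 of 14377 genes showing a larger one. Ccna2, which encodes the cyclin A2 of S phase and G2, gave signals of 28.1 and 51.3, a log2 ratio of 0.81. Plk1, a kinase of mitotic entry and spindle assembly, gave 76.4 and 139, a log2 ratio of 0.80. With normexp background correction and an offset of 50 units, an alternative to the scanner software's own correction, these ratios were 0.33 for Ccna2 and 0.44 for Plk1, and 0.41 for Mki67. Cdk1, the kinase that drives mitosis, was not well above background in WT iBAT, with a signal of 11.5, and reached 39.7 without ASK1, so it was at least 1.93-fold higher. Aurka, the centrosomal kinase, gave 92.1 and 143, a log2 ratio of 0.58 (0.25 with normexp), whereas the cyclin B genes were close to 0, with log2 ratios of -0.03 for Ccnb1 and 0.05 for Ccnb2. With no filter on dim probes, which brings in its other 2 probes, Ccnb1 was at 0.53.

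Among the replication genes, Rrm2, the small subunit of ribonucleotide reductase that limits the supply of deoxynucleotides, was the highest, with signals of 94.9 and 164 and a log2 ratio of 0.73 (0.42 with normexp). The helicase subunits Mcm3, Mcm5 and Mcm6 had log2 ratios of 0.50, 0.39 and 0.24, and Cdc6, which loads them, 0.40 (0.20 with normexp). The value of Cdc6 rests on 1 of its 2 probes (22.6 and 31.2), since the other (18.0 and 13.8) was not well above background, and with both probes its log2 ratio was -0.02. The replication genes were not uniform. Mcm2, with signals of 101 and 99.7, had a log2 ratio of -0.09, and thymidylate synthase Tyms, with 74.2 and 77.1, one of -0.01. The clamp Pcna, with 3417 and 3992, had one of 0.16. Of the G1 genes, Ccnd1 (cyclin D1) stood out with signals of 422 and 701 and a log2 ratio of 0.67, while Ccnd2, Ccnd3, Ccne1, Cdk2 and Cdk4 lay between -0.09 and 0.20. Cdk4, the kinase that cyclin D1 activates, gave 4809 and 4717 at its brightest probe.

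Several spindle and cytokinesis genes were also higher. Nusap1, which bundles spindle microtubules, gave 25.9 and 41.0 (log2 ratio 0.60), Birc5, which encodes the passenger protein survivin, 136 and 204 (0.52), Cenpe, a kinetochore motor, 32.8 and 47.3 (0.47), and Prc1, which bundles the central spindle, 27.0 and 42.4 (0.59). Bub1b, a checkpoint kinase, gave 27.2 and 29.7 (0.06), and its sign turned under 4 of the alternative settings. Kif23, a central spindle motor, was at 14.0 in WT, not well above background, and at 25.1 without ASK1, at least 1.22-fold higher. Against this trend, Kif20a, another motor of cytokinesis, was lower without ASK1, with signals of 48.0 and 32.1 and a log2 ratio of -0.64. With normexp the ratios were 0.12 for Nusap1, 0.36 for Birc5, 0.20 for Cenpe, 0.21 for Prc1 and -0.08 for Kif20a, so that the sizes given for these genes depend on the background correction. The transcription factors among the members lay slightly below 0, with E2f1 at 82.4 and 76.9 (log2 ratio -0.16) and Foxm1 at 33.7 and 31.7 (-0.15). Mybl2, which encodes B-MYB and is not a member, lay at 0.26, with its probes at 0.06 and 0.45. Top2a (6.98 and 15.9), Tpx2 (7.47 and 12.6 at one probe, 15.2 and 7.58 at the other), Bub1 (4.53 and 4.30) and Kif11 (4.45 and 3.67) were not well above background on either iBAT array.

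Spag5, which encodes the spindle and kinetochore protein astrin, stood apart from all other members. Its single probe, on chr11:78135655-78135714 (mm9), gave 62.2 (WT) and 303 (ASK1-deficient) in iBAT, and 71.5 and 39.6 in eWAT. The ASK1-deficient iBAT array was the only high value, 4.67-fold above WT, and only 4 of 14377 genes had a larger log2 ratio. With normexp its log2 ratio was 1.48 in place of 2.22. Of the 24 spots around this spot on the slide, 1 was at least 2-fold apart between the iBAT arrays. Of the neighbouring genes on the chromosome, Aldoc had a log2 ratio of 0.77 in iBAT and -0.38 in eWAT, Pigs -0.12 and -0.02, and 2610507B11Rik -0.15 and -0.07. With 1 spot on 1 array behind it, this value has no check by another probe.

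Macrophage markers moved with the members in iBAT. All 10 macrophage genes measured on both iBAT arrays were higher without ASK1, with a median log2 ratio of 0.69 and a range from 0.06 to 0.86, and their scaled signals summed to 21.2 (WT) and 29.0 (ASK1-deficient), with Cd163 not well above background in WT. Adipocyte progenitor markers summed to 31.2 and 36.7, with 4 of 7 above 0. The highest of them was Dlk1, a preadipocyte marker, with a log2 ratio of 2.47 and signals of 411 and 1932 at its brighter probe. Endothelial markers were above 0 in 5 of 6 (median 0.10), and T cell markers to 7.42 and 6.24, with 3 of 7 above 0. Granulocyte markers summed to 7.43 and 6.61. Brown adipocyte markers were lower in 7 of 7. The part of these cell types in the members' difference was not tested.

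In eWAT the members were lower without ASK1. Of 35 members measured on both eWAT arrays, 5 lay above 0 and 30 below, with a median log2 ratio of -0.24, while the median of all 15377 genes was 0.02 and 54.1% of them lay above 0. No member was 2-fold apart in either direction, with 0 higher against 0.286% of all genes and 0 lower against 0.865%. Among the roles with more than 1 member, mitotic genes had the lowest medians. The median log2 ratio was -0.45 in the 3 cytokinesis genes, -0.40 in the 6 mitotic entry genes measured and -0.38 in the 7 spindle and chromosome genes measured. All genes of these roles lay below 0. It was -0.16 both in the 2 transcription factors and in the 2 ubiquitin ligase genes, -0.06 in the replication genes and -0.02 in the G1 cyclins and kinases. With normexp it was -0.26 in the cytokinesis genes (Kif20a) and -0.21 in the spindle and chromosome genes (Cenpe). In the mitotic entry genes it then lay between -0.40 (Cdk1) and -0.20 (Ccnb1).

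Cdk1 was the lowest member, with signals of 116 (WT) and 61.8 (ASK1-deficient) and a log2 ratio of -0.82. Its other probes, with 27.5 and 19.5, and 8.11 and 8.19, were not well above background without ASK1 and did not enter. Mki67 gave 1039 and 658 at one probe and 770 and 472 at the other, a log2 ratio of -0.59 (1.51-fold lower), and 397 of 15377 genes were lower still. Ccna2 gave 218 and 136 (-0.59), and Ccnb2, a mitotic cyclin, 429 and 284 (-0.51). The G2 and mitosis cyclins and their kinase were all dimmer in the ASK1-deficient pool, although Plk1, with 387 and 335 (-0.12), and Aurka, with 396 and 352 (-0.08), were close to level. Ccnb1 lay at -0.29. Cdc20, the activator of the ubiquitin ligase that ends mitosis, gave 393 and 268 (-0.46), whereas Ube2c, the conjugating enzyme of that ligase, gave 234 and 242 at one probe and 237 and 248 at the other (0.14).

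All measured genes of the spindle and chromosomes were lower. Tpx2, which activates Aurora A on the spindle, gave 84.1 and 51.5 (log2 ratio -0.62), and Top2a, the topoisomerase that untangles chromosomes, 101 and 68.0 (-0.48) at chr11:98855522-98855581 (mm9). Birc5 was lower at each of its 3 probes, from -0.20 to -0.56, and Spag5 at -0.77. Bub1b at -0.22, Cenpe at -0.24 and Nusap1 at -0.25, with signals of 205 and 163, were closer to 0. Bub1 and Kif11, a checkpoint kinase and the motor that separates the spindle poles, were well above background only in WT eWAT. Bub1 is printed 10 times on the array, and 8 of 9 usable spots were well above background in WT eWAT, with a median signal of 26.1, against 0 of 7 in ASK1-deficient eWAT, with a median of 16.2, so that it was at least 1.14-fold lower. The usable spots spanned 16.3 to 32.5 in WT and 14.2 to 21.1 without ASK1, and these ranges overlapped. Kif11 gave 31.9 and 19.5, at least 1.45-fold lower. Prc1 gave 343 and 211 (-0.61), Kif20a 157 and 108 (-0.45) and Kif23 92.2 and 71.3 (-0.28). With normexp several genes lay closer to 0, with Cdk1 at -0.40, Spag5 at -0.36, Tpx2 at -0.26, Kif20a at -0.26, Birc5 at -0.25 and Top2a at -0.14, while Mki67 was at -0.54 and Prc1 at -0.49.

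Replication genes were mostly level in eWAT. Rrm2 was the exception, with signals of 496 and 291 and a log2 ratio of -0.68. Cdc6 lay at -0.30, and Mcm2, Mcm3, Mcm5, Mcm6 and Pcna lay between -0.13 and 0.08. Tyms, with signals of 83.3 and 92.1 and a log2 ratio of 0.23, was the highest member, followed by Ccnd2, with 15344 and 16576 (0.20). With normexp Tyms was at 0.04, Ccnd2 at 0.25, Cdc6 at -0.09 and Rrm2 at -0.60. E2f1 gave 768 and 772 (0.10) and Foxm1 96.9 and 68.4 (-0.42, and -0.22 with normexp). For Ccne1 the probes disagreed, with log2 ratios of 0.13 and -0.51, so that its mean of -0.19 describes neither. Among the markers, T cell genes were lower in 6 of 7 (median log2 ratio -0.45) and granulocyte genes in 5 of 6 (-0.40), with summed scaled signals of 6.55 and 5.46 for T cells and 5.81 and 4.83 for granulocytes. Macrophage markers were level, with sums of 117 and 114 and a median of -0.02, and progenitor markers summed to 83.3 and 76.7. Mesothelial genes were lower in 6 of 6 (median -0.25), erythroid genes in 4 of 4 (-0.20), brown adipocyte genes in 5 of 6 (-0.61) and skeletal muscle genes in 4 of 4 (-0.89), with their sums given above. Hepatocyte markers summed to 23.4 (WT) and 1.19 (ASK1-deficient) in eWAT, and to 0.341 and 1.67 in iBAT. Their part in the members' difference was not tested.

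The direction of the genotype difference was opposite in the 2 tissues for most members. Of the 31 members measured in both, 21 (67.7%) were higher without ASK1 in iBAT and lower in eWAT, against 18.0% of the 14059 genes measured in both. These comparisons share no array. The count is by sign alone and takes in values near 0, such as Cdc20 at 0.02 and Bub1b at 0.06 in iBAT and Ccnd3 at -0.01 in eWAT. Under median centring Bub1b, Ccnb2, Cdc20 and Cdk2 turned sign in iBAT. Ccnd2, Ube2c and Pcna were higher in both tissues. Kif20a, Foxm1, Mcm2, Cdk4 and Ccnb1 were lower in both, and E2f1 and Tyms were lower in iBAT and higher in eWAT. When genotype was fitted with tissue over the 4 arrays with limma, which takes the difference as equal in both tissues, 0 of 14057 genes passed an adjusted p of 0.05, while 770 genes (5.48%) had an unadjusted p below it. Of the members, 1 had an unadjusted p below 0.05, namely Kif20a, which was lower in both tissues, with a log2 coefficient of -0.55 (SE 0.15) and a Benjamini-Hochberg adjusted p of 0.715 in limma. The opposite signs of Mki67 left a coefficient of -0.01 (SE 0.27).

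**Figure D3:**
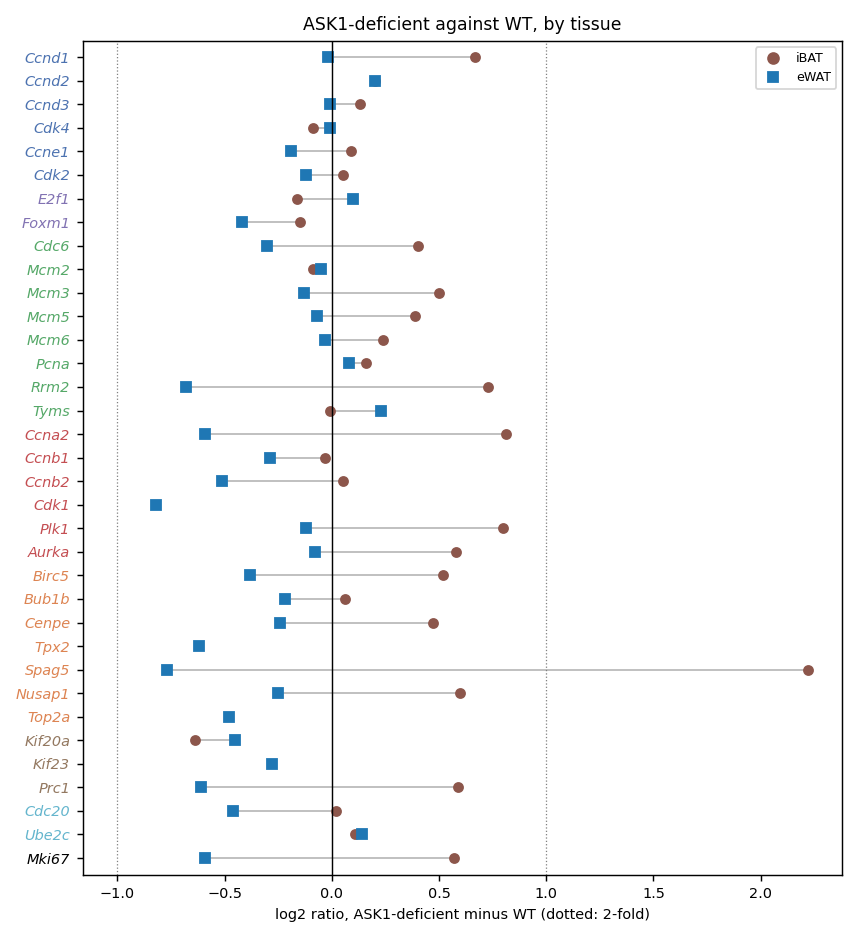
Log2 ratio of ASK1-deficient over WT for each member measured, in iBAT (brown circles) and eWAT (blue squares), joined by a line where both were measured, with 1 array per point and dotted lines at 2-fold. Most circles lie right of 0 and most squares left of it, and Spag5 in iBAT is the single point past 2-fold.

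Where 0 lies depends on the scaling, and the count of members above 0 in iBAT ran from 20 under median centring to 28 under the 75th percentile of detected probes. Relative to the median of all genes, the members' median lay at 0.25 to 0.31 in iBAT and at -0.3 to -0.15 in eWAT.

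Members with CHR letters in the promoter had a median log2 ratio of -0.46 in eWAT, with 12 of 13 below 0, and those in the table without them -0.12, with 13 of 16 below 0. In iBAT the medians were 0.34, with 9 of 10 above 0, and 0.20, with 12 of 16 above 0. Members with an E2F site were at 0.39 in iBAT and -0.21 in eWAT, against 0.13 and -0.22 for those without. These splits of a small list are given as a description. With normexp the eWAT median was -0.15 (Bub1b) with CHR letters, and between -0.09 (Cdc6) and -0.08 (Mcm6) without. The iBAT median then lay between 0.06 (Ube2c) and 0.21 (Prc1) with them, and between 0.17 (Ccnd3) and 0.20 (Cdc6) without. The difference between the sets was thus smaller in eWAT and unclear in iBAT. In the main setting the 2 sets overlapped in eWAT. Members with CHR letters ran from Cdk1 at -0.82 to Ube2c at 0.14, with Plk1 at -0.12, Aurka at -0.08 and Mcm2 at -0.05 among them, and Rrm2, without these letters, lay at -0.68. Of the genes whose promoters are printed above, Mki67, Cdk1 and Top2a lay at -0.59, -0.82 and -0.48 and Mcm6 at -0.03, and Mki67 and Cdk1 carry an E2F site as well as CHR letters, that of Cdk1 lying upstream of the stretch shown.

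Other genes of the cell cycle, in 5 lists of 119 genes without the members, were shifted most in the mitosis list. Of 46 other mitosis genes, 14 of the 21 measured lay above 0 in iBAT (median log2 ratio 0.16) and 28 of the 36 measured lay below 0 in eWAT (median -0.18). The 34 other replication genes had medians of -0.01 in both tissues, with 14 of 29 above 0 in iBAT and 14 of 31 in eWAT. Pocket proteins, E2F and MuvB genes had medians of -0.03 and 0.02, other G1 cyclins, kinases and ligases -0.01 and -0.02, and CDK inhibitors -0.12 and 0.04. Of these genes together, 87 were measured on both iBAT arrays, with 43 above 0 (median -0.01) against 40.5% of all genes. On both eWAT arrays 105 were measured, with 41 above 0 (median -0.04) against 54.1% of all genes. In either tissue 0 of the measured genes were 2-fold apart between genotypes. Cdca5, which encodes the cohesin regulator sororin, was not well above background in WT iBAT, at a signal of 23.0, and stood at 51.8 without ASK1, at least 2.16-fold higher. The extremes among the measured genes, named, like Cdca5, after their values were seen, were E2f7, an atypical repressive E2F, at 0.77 and Ccng2, the antiproliferative cyclin G2, at -0.95 in iBAT, and the mitotic kinase Melk at -0.69 and Wee1, the kinase that restrains Cdk1, at 0.51 in eWAT. Racgap1, a central spindle protein, was the highest of the other mitosis genes measured on both iBAT arrays, at 0.72.

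**Figure D4:**
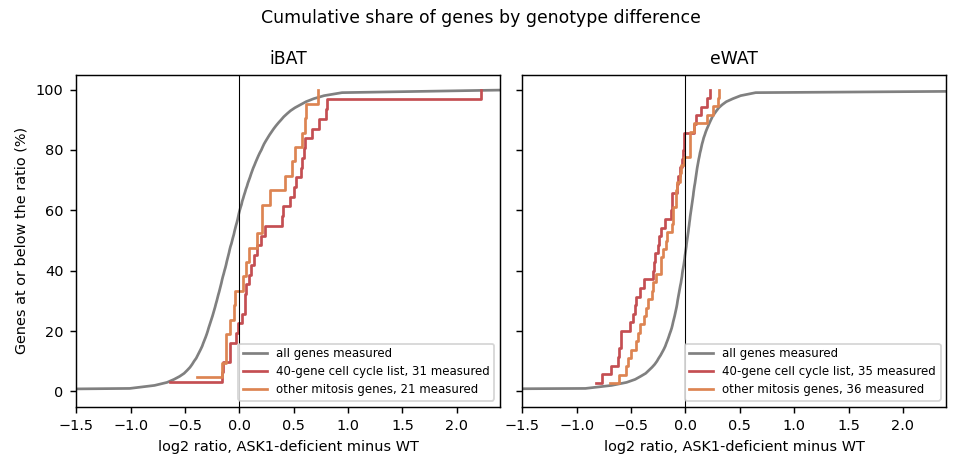
Cumulative share of genes (%) at or below each log2 ratio of ASK1-deficient over WT, in iBAT (left) and eWAT (right), for all genes measured (grey), the 40-gene list (red) and the other mitosis genes (orange). Over most of their range the red and orange curves lie right of the grey one in iBAT and left of it in eWAT, with medians of 0.20 and 0.16 against -0.07 and of -0.24 and -0.18 against 0.02.

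Between the tissues, the members were higher in eWAT. In WT mice 27 of 31 measured members lay above 0 (eWAT minus iBAT), with a median log2 ratio of 1.28 against -0.12 for all 14236 genes. At least 2-fold higher were 18 members, against 13.4% of all genes, and 0 were 2-fold lower, against 16.4%. Without ASK1, 27 of 33 lay above 0, with a median of 0.73 against -0.03 for all genes, and 7 were at least 2-fold higher, against 12.6% of all genes, while 1, Spag5, was at least 2-fold lower, against 12.3%. With normexp 9 of 31 members were at least 2-fold higher in WT mice (median 0.71), against 1471 of 14236 genes. Without ASK1 4 of 33 were (median 0.28), against 1325 of 14513 genes. These comparisons use the same arrays as the genotype comparisons and are therefore not independent of them. The smaller difference without ASK1 follows arithmetically from the higher iBAT and lower eWAT values given above.

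In WT mice the largest differences were those of Ccnd2, a D-type cyclin, with signals of 1192 in iBAT and 15344 in eWAT (log2 ratio 2.77), Prc1 with 27.0 and 343 (2.75), and Mki67 (2.58), whose signals are given above. Cenpe gave 32.8 and 348 (2.49) and E2f1 82.4 and 768 (2.30). Lower in the order but still at least 2-fold apart were Mcm3, with 384 and 1784 at its brighter probe (1.37 over both), Mcm5 with 122 and 563 (1.29) and Bub1b with 27.2 and 125 (1.28). In ASK1-deficient mice the 5 genes named first were at 2.77, 1.55, 1.42, 1.78 and 2.56, so that Ccnd2 and E2f1 had nearly the same difference in both genotypes and the 3 mitotic genes a smaller one. Rrm2 was at 1.47 in WT and 0.06 without ASK1, and Ccna2 at 2.04 and 0.64. Members dim in iBAT gave bounds, each from the probe with the largest bound. Cdk1 was at least 3.11-fold, Top2a at least 2.71-fold, Kif23 at least 2.48-fold and Tpx2 at least 2.26-fold higher in WT eWAT. At another probe of Cdk1 the WT iBAT and eWAT signals were 19.5 and 27.5, and at another of Tpx2 15.2 and 26.3, before scaling. The bounds thus hold for the probes used and not for every probe of the gene. The lowest members in WT mice were Tyms, with signals of 74.2 and 83.3 (-0.75), Spag5 (-0.72), Cdk4, with 4809 and 7269 (-0.37), and Cdk2, with 181 and 327 (-0.07), followed by Ccne1, with 359 and 813 (0.26). Each of these was brighter in eWAT before scaling, and without scaling the log2 ratios of the first 4 turned to values above 0.

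In the limma fit over the 4 arrays, 25 of the 31 members tested passed an adjusted p of 0.05 for tissue, 23 of them higher in eWAT, against 24.6% of all 14057 genes, and 2 lower, against 30.8%. The median coefficient was 0.88 for the members and -0.07 for all genes. Ccnd2 had a log2 coefficient of 2.77 (SE 0.14, adjusted p = 4.1e-05), E2f1 of 2.43 (SE 0.15, adjusted p = 7.4e-05) and Cenpe of 2.14 (SE 0.20, adjusted p = 3.2e-04). Prc1 followed with 2.15 (SE 0.28, adjusted p = 0.00114) and for Mki67 the adjusted p was 0.00137. Nusap1, Birc5, Ccna2 and Mcm6 had coefficients of 1.64, 1.43, 1.34 and 1.30, and the signals of Mcm6 were 883 (WT) and 1087 (ASK1-deficient) in iBAT and 4525 and 4167 in eWAT. Lower in eWAT were Spag5, with -2.21 (SE 0.62, adjusted p = 0.0229), which rests on the ASK1-deficient iBAT array and no longer passed under 4 of the alternative settings, and Tyms, with -0.63 (SE 0.15, adjusted p = 0.0133), which turned to 0.21 without scaling. Foxm1, at 0.47 (adjusted p = 0.0403), turned to -0.17 under normexp background correction. Under normexp Bub1b (1.14 to 0.23), Ccnb1 (0.87 to 0.04), Kif20a (0.88 to 0.18) and Ube2c (0.53 to 0.22) kept their sign and no longer passed. Foxm1 also no longer passed under median centring, with the series table and with no filter on dim probes. With no such filter Ccnb1, Ccnd3, Tyms and Ube2c no longer passed either. Ccne1, Cdc6, Cdk2, Cdk4, Pcna and Rrm2 did not pass. The fit has 1 residual degree of freedom, and its replication is over the genotypes, not over mice of a kind.

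**Figure D5:**
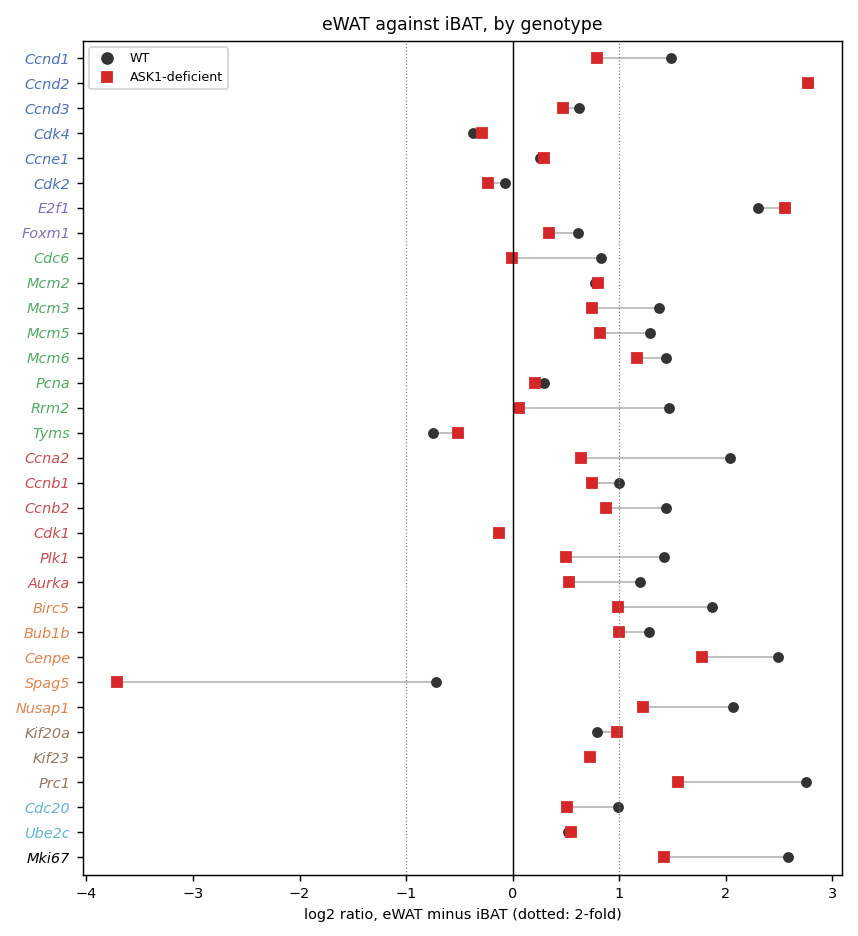
Log2 ratio of eWAT over iBAT for each member measured, in WT (black circles) and ASK1-deficient mice (red squares), joined by a line where both were measured, with 1 array per tissue and genotype and dotted lines at 2-fold. Most points lie right of 0, the black circles mostly further than the red squares, and Spag5 in ASK1-deficient mice lies at -3.71.

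Genes of other cell types differed between the tissues as well. In WT mice 9 of the 10 macrophage genes measured were at least 2-fold higher in eWAT (median log2 ratio 3.06), and progenitor genes had a median of 2.01. The summed macrophage signal was 117 in WT eWAT against 21.2 in WT iBAT, while the summed signal of the members was 93.6 against 48.9. Without ASK1 the members summed to 95.1 in eWAT and 55.1 in iBAT, so that the sum was slightly higher without ASK1 in eWAT although 30 of 35 members lay below 0 there. The brightest members, Ccnd2 and Ccnd3, weigh most in this sum. The part of these cells in the members' tissue difference was not tested. Of the other mitosis genes, 9 of 21 were at least 2-fold higher in WT eWAT, with a median of 0.80, and of the other replication genes 8 of 29, with a median of 0.26. The inhibitor Cdkn2b was higher in eWAT as well, at 3.28, and Cdkn1a lower, at -2.38, both named after their values were seen.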

How the data were processed

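The 4 arrays (Agilent whole mouse genome design, mm9 probe positions) were grouped by the genotype and tissue that the labels give. The authors deposited the output of Agilent Feature Extraction 10.7.3.1. Its processed signal is an intensity after removal of a spatial background trend, with surrogate values for dim spots and no scaling between arrays. Dim members are therefore the least certain. The authors also deposited a series table whose signal is the processed signal divided by 1 constant per array that sets its median to 1.

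Control spots (3671 of 62976) and outlier spots (82 to 129 per array) were left out, log2 values were averaged over the spots of a probe, and the 75th percentile of each array was subtracted. No spot was saturated (0 on each array). A gene's value is the mean log2 ratio over those of its probes detected well above background on each of the 2 arrays. Where 1 array was below background, a bound was computed. It was taken against the higher of the dim probe and the lowest signal well above background on that array (17.3 to 20.7). The largest bound over a gene's probes was kept. Genes were called at 2-fold. Of 34844 gene names, 22147 matched RefSeq, giving 22066 genes. Tissue and genotype were fitted together with limma 3.58.1 in R 4.3.3, with Benjamini-Hochberg adjustment over 14057 genes. The arrays share 1 slide and scan, so neither could be used as a block.

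The members, roles, pathway lists, 15 marker lists, motifs and tests were chosen with earlier results of these data known. Every member was accounted for. Signals were given, mostly on the arrays compared, for those 2-fold apart between genotypes and for most of the 5 highest and lowest of the genotype and WT tissue comparisons. They were also given for most of up to 10 past the limma threshold and for dim members, as a range for those dim on every array. Simulated data had 200 genes moved by 2 on the log2 scale. In each of the 4 comparisons 200 were recovered and 0 unchanged genes called, and 200 and 12 for the tissue term of limma. The noise added in the 4 comparisons was the spot-to-spot SD of all probes. It held no spread between mice and not the larger SD of dim probes. Such a move could hardly be missed at 2-fold, so this checks the calculation only. Alternatives covered background correction, scaling, the series table, dim probes, several probes and the threshold. Python 3.11.15, pandas 2.3.3 and numpy 2.4.6 were used. The number of arrays limits the precision.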

Additional observations from a re-analysis of the deposited data

Results flagged for a closer look

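For 6 members the genotype difference ran in opposite directions in the tissues, in each tissue by more than 2 times the spot-to-spot SD of dim probes. The iBAT log2 ratio minus the eWAT log2 ratio was 1.16 for Mki67, 1.40 for Ccna2, 0.90 for Birc5, 1.20 for Prc1, 1.41 for Rrm2 and 2.99 for Spag5. In each case the ASK1-deficient array was the brighter one in iBAT and the dimmer one in eWAT. With normexp background correction Ccna2, Birc5 and Prc1, at 0.33, 0.36 and 0.21 in iBAT, fell short of that spread, and 3 of the 6 members still passed it in both tissues. With 1 array per condition, the difference between the tissues was not tested.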

How the results depend on the processing

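No paired analysis was possible because each condition has 1 array and so no replicate number, although the limma tissue term compares the tissues within each genotype. In the limma tissue term Tyms turned to 0.21 without scaling and Foxm1 to -0.17 with normexp, while the other called members kept their sign, with 15 passing values that no longer passed and 12 that newly did. Members under 2-fold changed sign in the genotype and tissue comparisons, up to 5 under 1 setting, among them Cdc6 (0.83) and Foxm1 (0.61) with normexp and Tyms (-0.75) and Spag5 (-0.72) without scaling in the WT tissue comparison, Ccnb1 (0.74) and Kif23 (0.73) with normexp in the ASK1-deficient one, and Cdc6 (0.40) in iBAT with no filter on dim probes. Of the main counts and medians, 140 values stayed close to the main one and 28 moved. With normexp 18 of 31 members moved by over 1.5 times in the iBAT genotype comparison and 19 of 35 in that of eWAT, with 25 of 31 above 0 and 30 of 35 below 0. In the tissue comparisons 9 and 4 members were then 2-fold higher, against 1471 of 14236 and 1325 of 14513 genes. The median log2 ratio was -0.14 in the eWAT genotype comparison, 0.71 in the WT tissue comparison and 0.28 in the ASK1-deficient tissue comparison. Without scaling these medians were -0.33, 2.20 and 1.51. In ASK1-deficient eWAT 25 members were then 2-fold higher, against 5173 of 14513 genes, and the limma tissue term called 0 members lower. All genes shifted without scaling, their median being 0.798 and 0.746 in the tissue comparisons. With the 75th percentile of detected probes the iBAT median was 0.30, the WT tissue median 1.41 and the members called lower by limma 1. With cyclic loess the iBAT median was 0.29 and the members called lower by limma 1. The ASK1-deficient tissue median was 0.82 with median centring and 0.81 with the series table. With no filter on dim probes 2 of 40 members were 2-fold higher in iBAT, against 583 of 22065 genes. In eWAT 1 was higher and 1 lower without ASK1, against 432 and 604 of 22066 genes. With this setting the ASK1-deficient tissue median was 0.60 and limma called 0 lower for tissue. When detection was required on all 4 arrays, the eWAT genotype median was -0.13. At 1.5-fold, 7 members were higher and 1 lower in iBAT, against 650 and 612 of 14377 genes. In eWAT 7 were lower without ASK1, against 410 of 15377 genes. Between the tissues, 2 were lower in WT eWAT, against 4071 of 14236 genes. In ASK1-deficient eWAT 18 were higher, against 3082 of 14513 genes. Of single members, 1304 values stayed close to the main one or on the same side of the limma threshold and 388 moved, and no difference of at least 2-fold changed sign.

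With 1 pool per condition nothing here measures the spread between mice. Dim members were read near the lowest detectable signal, where surrogate values replace the spot's own.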
